A study of Mus musculus with 9 samples.

Results

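Adipose stromal cells from lactating mammary glands (ASC-Ls) were compared with those from nulliparous glands (ASC-Ns) across every probe set annotated to exactly 1 gene symbol, which took in 21762 of the 28348 probe sets on the array and 19930 genes. The comparison rests on 6 of the 9 Affymetrix Mouse Gene 1.0 ST arrays of the series, 3 per stage, all from female Balb/c mice for which no genetic change or drug treatment is described. ASC-Ns came from nulliparous mice of 8 weeks and ASC-Ls from mice at day 5 of lactation. According to the methods the other females were mated at 8 weeks, so ASC-L mice were older, and age and stage cannot be told apart. The remaining 3 arrays (ASC-Is), from day 3 of involution, entered the model only through the shared estimate of spread. The cells were freed from the gland with collagenase and hyaluronidase and spun down, and the sources differ on the next step, with RNA taken by Trizol according to the labels and from low passage cultures with a column kit according to the methods. The labels call the arrays of a stage biological replicates, but the mice behind each array are not given, so each test here reflects only how far these preparations differed.

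The mammary fat pad holds adipocytes, their progenitors, fibroblasts, vessels and immune cells around the epithelial tree. During lactation the milk-producing epithelium fills the pad and adipocytes give up much of their stored lipid, while stromal cells supply matrix, growth factors and signals made from retinoids. Pparg is the nuclear receptor that drives adipocyte differentiation, and retinoic acid, Wnt proteins and bone morphogenetic proteins are among the signals that act on the same progenitors.

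All values are log2 signals per probe set, and changes are ASC-L minus ASC-N on that scale. The words rose and fell are kept for probe sets where limma gave an unadjusted p under 0.05 and a change of at least 1.5-fold, the limits used for this series. By that rule 135 probe sets (0.62% of those tested), of 133 genes, changed. Of these, 36 (0.165%) were higher and 99 (0.455%) were lower in ASC-Ls. None passed a Benjamini-Hochberg adjusted p of 0.05 in limma, the lowest adjusted p being 0.999, so the named changes are given with their standard errors (SE), and 752 probe sets (3.46%) had an unadjusted p under 0.05. The 3 ASC-L arrays lay wholly above or below the 3 ASC-N arrays for 1842 probe sets (8.46%), and for 89 of the 135, 27 that rose and 62 that fell. The rises ran from 0.59 to 1.76 with a median of 0.74, and the falls from 0.60 to 1.85 in size with a median of 0.85. With 3 arrays per stage an exact two-sided permutation test of 1 gene cannot give a p below 0.10. Arrays in random order would lie apart with a probability of 0.10, so the 8.46% seen is no more than such an order gives. The 3.46% under the p limit of 0.05 is likewise no higher than that limit. For probe sets already past the limits, stages that lie apart follow in part from that selection. Gene lists below were chosen with earlier results of these data known, so their counts past the limits are partly set by that choice.

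**Figure D1:**
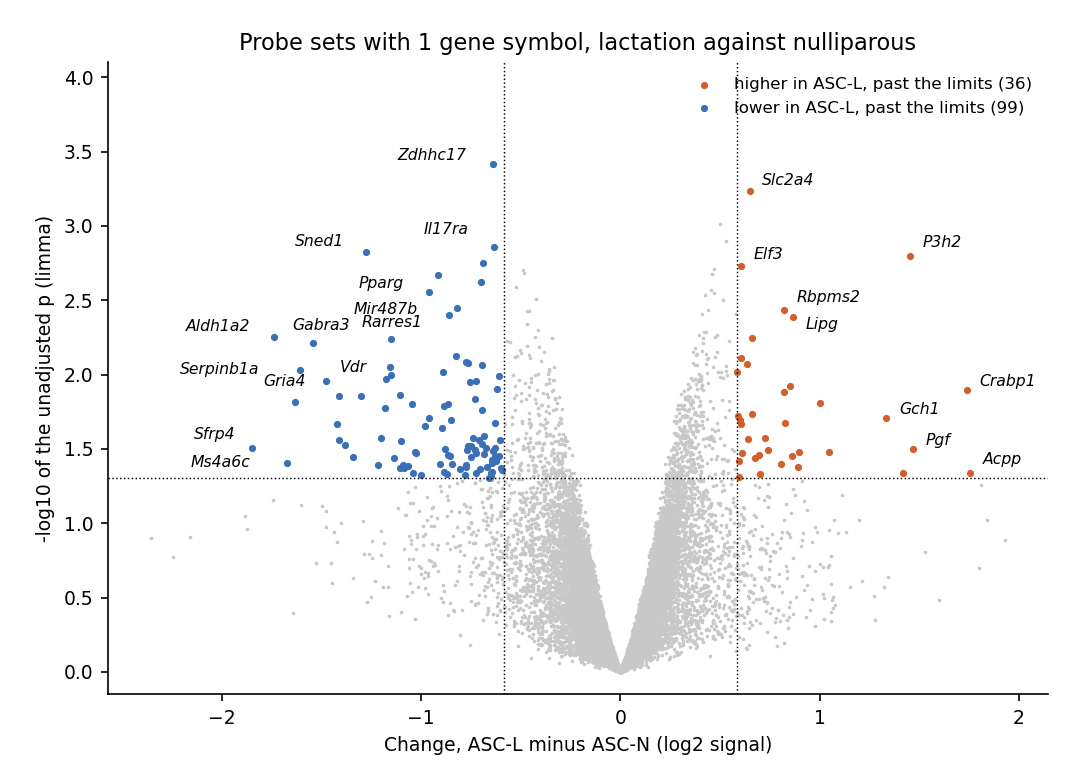
Change in log2 signal (x axis, ASC-L minus ASC-N) against -log10 of the unadjusted limma p (y axis) for the 21762 probe sets. Dotted lines mark the limits, the 36 orange points are higher and the 99 blue points lower in ASC-Ls, and the named genes range from Sfrp4 at -1.85 to Acpp at 1.76.

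2 arrays stood apart. ASC-L replicate 2 carried a high epithelial signal, with a mean over the 24 luminal marker probe sets of 8.41 against 5.86 and 6.04 in the other ASC-L arrays and 5.65 to 6.66 in ASC-Ns. ASC-N replicate 3 carried a low macrophage signal, with a mean over 36 marker probe sets of 5.67 against 7.34 and 7.24 in the other ASC-N arrays. Fibroblast genes gave high signals on all 6 arrays, with Fn1 between 12.58 and 12.88 and Vim between 12.34 and 12.56. Adipocyte genes were mixed. Adipoq, the adipocyte hormone adiponectin, lay between 3.83 and 4.41, but Lpl, lipoprotein lipase, was high on all arrays. The mean over the 19 mature adipocyte probe sets was 5.76 to 5.96. In bulk RNA of this kind, fewer cells of a type and less RNA per cell cannot be told apart. Arrays correlated across the tested probe sets, which are not independent, with r of 0.973 to 0.991 within ASC-Ns and 0.960 to 0.979 within ASC-Ls.

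**Figure D2:**
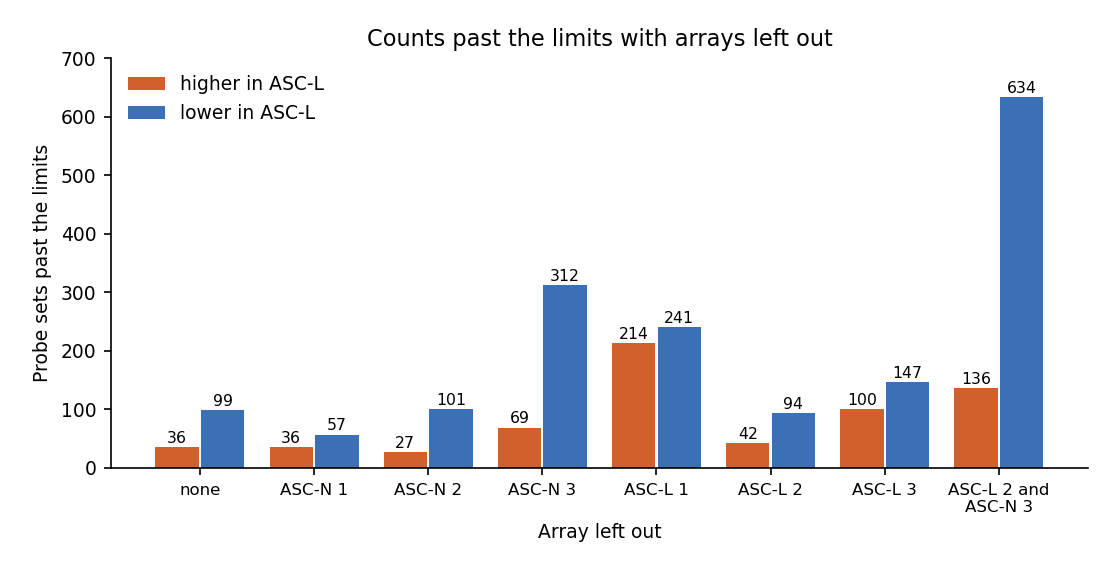
Number of probe sets past the limits (y axis) that were higher (orange) or lower (blue) in ASC-Ls when the array named on the x axis was left out of the model. The 36 rises and 99 falls of all arrays became 69 and 312 without ASC-N replicate 3, 214 and 241 without ASC-L replicate 1, and 136 and 634 without both ASC-L replicate 2 and ASC-N replicate 3.

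The counts moved with the arrays that were kept. Of the 135 probe sets, 22 stayed past the limits whichever of the 6 arrays was left out, 4 that rose and 18 that fell, and these are described in most detail. The rises were P3h2, Lipg, Rbpms2 and Slc2a4. The falls were Aldh1a2, Serpinb1a, Gabra3, Gria4, Sned1, Vdr, Tmeff2, Rarres1, Tnmd, Pparg, Frmd3, Arsi, a probe set of Trabd2b, Fzd4, Mir487b, Abat, Dlx2 and a probe set of Zdhhc17. For every other gene named below as having risen or fallen, leaving out at least 1 array ended the call, and that array is named with the change without it, except that the macrophage genes are given as a list. With ASC-L replicate 2 and ASC-N replicate 3 both left out, 7 of the 22 were lost, namely Slc2a4 (0.57), Abat (-0.58), Fzd4 (-0.72), Arsi (-0.66), Vdr (-0.97), Gria4 (-0.97) and Gabra3 (-1.10), and Slc2a4 and Abat were also lost with array weights.

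**Figure D3:**
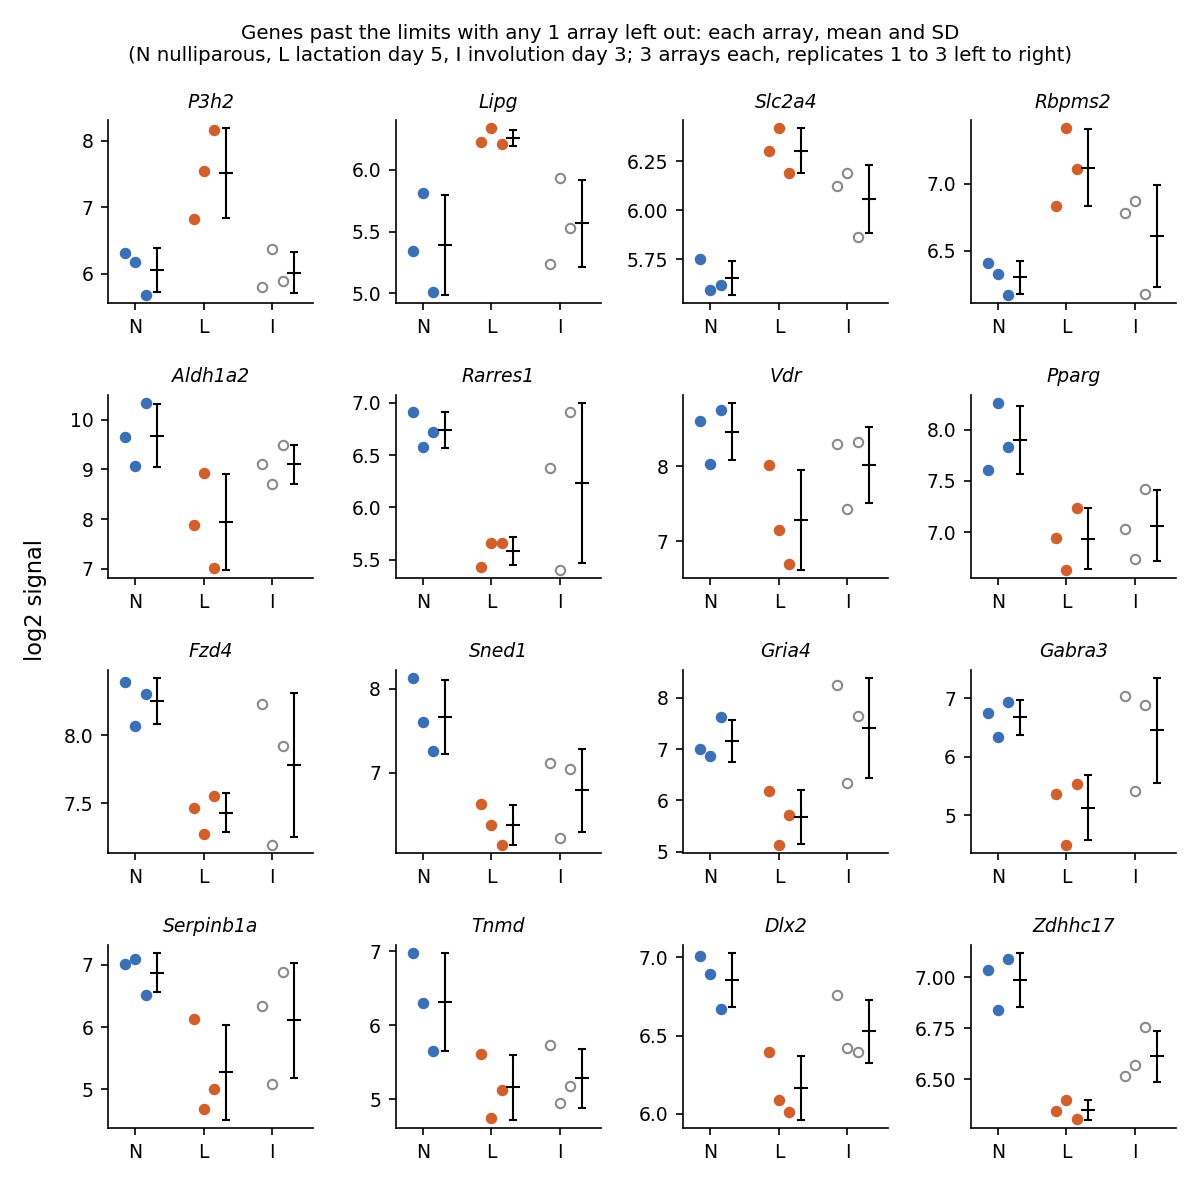
Log2 signal (y axis) of 16 of the genes that stayed past the limits with any 1 array left out. Filled points are the 3 ASC-N (blue) and 3 ASC-L (orange) arrays, open points the 3 ASC-I arrays, and bars the mean and SD of each stage; in every panel the ASC-L points lie wholly to one side of the ASC-N points, as for Slc2a4 at 6.19 to 6.42 against 5.59 to 5.75.

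Retinoic acid genes gave both a large rise and a large fall. Crabp1, the cellular retinoic acid binding protein, had signals of 8.76, 7.94 and 8.96 in ASC-N replicates 1 to 3 and of 9.99, 9.73 and 11.15 in the ASC-L replicates. The lowest ASC-L array lay 0.77 above the highest ASC-N array, and Crabp1 rose by 1.74 (SE 0.56), a 3.34-fold change. It missed the p limit without ASC-L replicate 3 (change 1.31, SE 0.57) and without ASC-N replicate 2 (1.43, SE 0.62). Aldh1a2, the enzyme that makes retinoic acid from retinaldehyde, had signals of 9.65, 9.06 and 10.34 in ASC-Ns and of 7.89, 8.94 and 7.01 in ASC-Ls. The stages lay apart, though ASC-L replicate 2 came close to ASC-N replicate 2, and Aldh1a2 fell by 1.74 (SE 0.48). Rarres1, a membrane protein whose gene responds to retinoic acid, was tight within stages, at 6.92, 6.57 and 6.72 in ASC-Ns and 5.43, 5.66 and 5.66 in ASC-Ls, and fell by 1.15 (SE 0.32).

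These 3 were the members past the limits among 27 probe sets for retinoid binding, synthesis and receptors. The list had a median change of -0.04 against 0.0061 over all probe sets tested, of which 0.62% were past the limits. The other retinal dehydrogenases gave wide standard errors, with -1.34 (SE 1.05) for Aldh1a1, at 9.61, 5.61 and 7.60 in ASC-Ls, and 0.46 (SE 0.53) for Aldh1a3. The receptors Rara, Rarb and Rxra differed by -0.09, -0.23 and -0.18, none past the limits. Vdr, the vitamin D receptor, was the member past the limits among 14 probe sets of thyroid hormone and vitamin D genes. Its signals were 8.61, 8.03 and 8.75 in ASC-Ns and 8.01, 7.15 and 6.69 in ASC-Ls, apart by a narrow gap between the lowest ASC-N and the highest ASC-L array. Vdr fell by 1.18 (SE 0.37).

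The 19 mature adipocyte probe sets had a median change of -0.0008, with 9 above and 10 below 0. Of these only Slc2a4 was past the limits, and it rose. Among regulators of fat cell differentiation, Pparg fell. Its signals were 7.61, 8.26 and 7.83 in ASC-Ns and 6.95, 6.63 and 7.23 in ASC-Ls, so that all ASC-L arrays were lower, and the change was -0.96 (SE 0.24). It was the member past the limits among 24 probe sets for transcriptional regulators of adipogenesis, of which 19 lay below 0 (median -0.20, against 48.5% of all probe sets below 0, or -0.08 with 17 below 0 when ASC-L replicate 2 was left out). Cebpa, a partner of Pparg in adipocyte differentiation, differed by -0.24 (SE 0.17) and Cebpb by -0.13 (SE 0.28). Slc2a4, the insulin-responsive glucose transporter GLUT4, moved the other way, at 5.75, 5.59 and 5.62 in ASC-Ns and 6.30, 6.42 and 6.19 in ASC-Ls. All ASC-L arrays were higher and the rise was 0.65 (SE 0.13), at a mean signal below the median of all probe sets. Pik3r3, a regulatory subunit of phosphoinositide 3-kinase, fell by 0.61 (SE 0.24), though not without ASC-L replicates 1 (-0.64) or 3 (-0.36) or ASC-N replicates 1 (-0.46) or 2 (-0.56). These were the 2 of 21 probe sets for glucose transport and insulin signaling past the limits, and Slc2a1, the widely expressed transporter GLUT1, differed by -0.02.

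Lipg, endothelial lipase, a secreted enzyme that acts on lipoprotein phospholipids, had signals of 5.34, 5.81 and 5.01 in ASC-Ns and of 6.23, 6.33 and 6.21 in ASC-Ls. The ASC-L arrays were close together and all lay above the ASC-Ns, and Lipg rose by 0.87 (SE 0.23). It was the only member past the limits among 14 probe sets for lipases and lipolysis. Lpl, lipoprotein lipase, was high on all arrays and mixed in ASC-Ls, at 10.02, 8.97 and 11.38, with a change of -0.62 (SE 0.58). Lipe, hormone-sensitive lipase, differed by 0.01 (SE 0.14) and Fabp4, the fatty acid binding protein of adipocytes, by -0.26 (SE 0.21). None of 23 probe sets for fatty acid and triglyceride synthesis and none of 17 for cholesterol synthesis was past the limits, and their medians were 0.01.

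Of all probe sets tested, 48.5% lay below 0 and 0.455% fell. Markers of adipose progenitors were lower in ASC-Ls for 18 of 20 probe sets (median -0.28), and 4 fell. Pdgfra, a platelet-derived growth factor receptor that marks these progenitors, had signals of 11.38, 11.26 and 11.11 in ASC-Ns and of 10.65, 8.86 and 10.60 in ASC-Ls. The stages lay apart, with ASC-L replicate 2 far below the others, and Pdgfra fell by 1.22 (SE 0.51). Osr1, a zinc finger transcription factor of mesenchymal progenitors, fell by 1.11 (SE 0.36), Gdf10, a member of the transforming growth factor beta superfamily, by 1.41 (SE 0.54), and Meox2, a mesenchymal homeobox factor, by 0.98 (SE 0.35). Without ASC-L replicate 2 none of the 4 was past the limits, with changes of -0.63 for Pdgfra (SE 0.38), -0.80 for Osr1 (SE 0.35), -1.22 for Gdf10 (SE 0.61) and -0.93 for Meox2 (SE 0.41), and the median of the list was -0.07. Without ASC-N replicate 1 none was past them either, with changes of -1.15, -0.93, -1.34 and -0.51 in the same order. The calls were also lost for Pdgfra without ASC-N replicates 2 (-1.21) or 3 (-1.29), for Gdf10 without ASC-N replicate 3 (-1.24) and for Meox2 without ASC-L replicate 3 (-0.91). The luminal marker mean of ASC-L replicate 2 given above went with these values, and its part in them was not tested.

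Among signals to progenitors and epithelium, falls were more common than rises, as over all probe sets tested (0.455% fell and 0.165% rose). Of 42 probe sets for Wnt ligands, receptors and modulators 4 fell and none rose, while 21 lay above 0 (median 0.0048 over the list). Wnt7a, a secreted Wnt ligand outside that list, rose by 0.74 (SE 0.29), from 5.36, 5.25 and 5.32 to 5.62, 6.82 and 5.73, but not without ASC-L replicate 2 (0.36) or any ASC-N array (0.71 to 0.77). Fzd4, a Wnt receptor of the Frizzled family, had signals of 8.39, 8.07 and 8.30 in ASC-Ns and of 7.46, 7.27 and 7.55 in ASC-Ls. The stages were 0.52 apart, and Fzd4 fell by 0.82 (SE 0.24). Sfrp4, a secreted Wnt modulator, showed the largest fall of all, 1.85 (SE 0.72), from 8.27, 6.46 and 7.37 to 6.06, 5.33 and 5.17. It missed the p limit without ASC-N replicates 1 (-1.40) or 3 (-1.84) or ASC-L replicates 2 (-1.75) or 3 (-1.67). Rspo2, a secreted enhancer of Wnt signaling, fell by 1.00 (SE 0.44) and Sulf2, an enzyme that trims sulfate from heparan sulfate, by 0.78 (SE 0.34). Rspo2 did not pass without ASC-N replicates 1 (-0.85) or 2 (-0.93) or ASC-L replicates 2 (-0.69) or 3 (-0.94), and Sulf2 did not without ASC-L replicates 1 (-0.52) or 3 (-0.87) or ASC-N replicates 2 (-0.72) or 3 (-0.71). Trabd2b, a membrane protease that cleaves Wnt proteins and is not on that list, fell in both its probe sets, by 0.86 (SE 0.22) and 0.77 (SE 0.23), the second only with ASC-L replicate 2 kept (-0.58 without it).

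While 0.455% of all probe sets fell, 3 of 43 did for transforming growth factor beta and bone morphogenetic protein signaling (median -0.06). They were Gdf10, the inhibitory Smad protein Smad6 (-0.72, SE 0.29) and the transcription factor Atoh8 (-1.30, SE 0.43). Atoh8 had signals of 8.06, 8.22 and 8.11 in ASC-Ns and of 7.34, 6.21 and 6.95 in ASC-Ls, which lay apart, and it missed the p limit without ASC-L replicate 2 (-0.99, SE 0.44). Smad6 was lost without ASC-L replicates 2 (-0.53) or 3 (-0.74) or ASC-N replicates 1 (-0.72) or 2 (-0.64). Hgf, the hepatocyte growth factor that stromal cells send to epithelium, had signals of 9.94, 9.76 and 10.05 in ASC-Ns and of 9.12, 7.84 and 9.39 in ASC-Ls. All ASC-L arrays were lower and Hgf fell by 1.13 (SE 0.46), but without ASC-L replicate 2 the change was -0.66 (SE 0.39), and it was also lost without ASC-N replicates 1 (-1.12), 2 (-1.21) or 3 (-1.07). Its receptor Met differed by 0.67 (SE 0.39). With Pdgfra, Hgf made up the 2 of 46 probe sets of receptor tyrosine kinases and their ligands past the limits (median 0.05).

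Angiogenic factors and receptors gave 2 rises and 2 falls among 30 probe sets (median 0.09), while 0.62% of all probe sets were past the limits. Without ASC-L replicate 2 none of the 30 was past the limits, 16 lay below 0 and the median was -0.10. Pgf, placental growth factor, had signals of 6.82, 6.72 and 6.57 in ASC-Ns and of 8.45, 8.88 and 7.18 in ASC-Ls, while Flt1, a receptor that binds it, had 6.90, 6.13 and 6.57 against 7.54, 7.82 and 6.71. Pgf was higher on every ASC-L array and Flt1 on all but ASC-L replicate 3, which lay below ASC-N replicate 1. Pgf rose by 1.47 (SE 0.58) and Flt1 by 0.82 (SE 0.30). Pgf passed only without ASC-L replicate 3 or with all arrays, and its change without ASC-L replicate 2 was 1.11 (SE 0.62), without replicate 1 it was 1.33, and without ASC-N replicates 1 to 3 it was 1.53, 1.48 and 1.40. Flt1 was lost without ASC-N replicate 2 (0.62) or ASC-L replicates 1 (0.73) or 2 (0.59). Among endothelial markers, 16 of 20 lay above 0 (median 0.18, against 51.5% of all probe sets above 0), with Flt1 up and Lmo2, a transcription cofactor of blood and vessel cells, down by 0.73 (SE 0.31). Without ASC-L replicate 2 none of that list was past the limits, 13 of 20 lay below 0 and the median was -0.12; leaving out any other array kept it above 0, from 0.03 to 0.51. Lmo2 passed with all arrays or without ASC-N replicate 3, and otherwise was lost (-0.53 to -0.74). Of the vascular endothelial growth factors, Vegfa differed by 0.15 (SE 0.20), Vegfc by 0.64 (SE 0.40) and Vegfd by -1.87 (SE 1.05), the last with signals of 11.32, 6.73 and 9.52 in ASC-Ls against 10.85 to 11.38 in ASC-Ns. Thbs3, a thrombospondin, fell by 0.65 (SE 0.29) and the protease Adamts1, an inhibitor of vessel growth, by 0.75 (SE 0.30). Thbs3 was lost without ASC-N replicates 1 (-0.42) or 2 (-0.54) or ASC-L replicates 2 (-0.51) or 3 (-0.65), and Adamts1 without ASC-L replicates 2 (-0.52) or 3 (-0.67) or ASC-N replicates 1 (-0.74) or 3 (-0.66).

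Matrix genes were lower more often than higher with all arrays, with few past the limits, but not once ASC-L replicate 2 was left out. P3h2, a prolyl hydroxylase that modifies collagen chains of basement membranes, is on none of the matrix lists and was higher. Its signals were 6.32, 6.17 and 5.68 in ASC-Ns and 6.82, 7.55 and 8.17 in ASC-Ls. Every ASC-L array was higher, and P3h2 rose by 1.46 (SE 0.33), whereas its relatives P3h1 and P3h3 differed by -0.06 (SE 0.15) and -0.27 (SE 0.30). Sned1, a matrix glycoprotein, had signals of 8.12, 7.60 and 7.26 in ASC-Ns and of 6.62, 6.38 and 6.15 in ASC-Ls. The stages were 0.64 apart and Sned1 fell by 1.28 (SE 0.28). Tnmd, tenomodulin, a membrane glycoprotein of tendon and fat, was 6.98, 6.30 and 5.65 in ASC-Ns and 5.61, 4.74 and 5.12 in ASC-Ls, with ASC-N replicate 3 just above the highest ASC-L array, and fell by 1.15 (SE 0.35). Serpinb1a, an inhibitor of neutrophil proteases, had 7.01, 7.10 and 6.52 in ASC-Ns and 6.13, 4.68 and 5.01 in ASC-Ls and fell by 1.61 (SE 0.49).

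Tnc, the matricellular protein tenascin C, stood among the brightest genes, at 11.84, 11.67 and 11.48 in ASC-Ns and 11.95, 12.81 and 12.34 in ASC-Ls. It rose by 0.70 (SE 0.30), but not without ASC-L replicates 2 (0.48) or 3 (0.72) or any ASC-N array (0.61 to 0.79). Lrrc17, a secreted leucine-rich protein, fell by 1.34 (SE 0.54) from 8.13, 7.44 and 5.54 to 5.89, 5.59 and 5.60, with ASC-N replicate 3 as low as the ASC-Ls. It stayed past the limits when ASC-N replicate 3 was left out and was lost without any other array, with changes from -0.79 without ASC-N replicate 1 to -1.44 without ASC-L replicate 1. With Sned1, Tnmd and Thbs3 these were the 5 of 47 matricellular and proteoglycan probe sets past the limits (median -0.09, 31 below 0, or 0.01 and 23 below 0 without ASC-L replicate 2). Over all probe sets tested 0.62% were past the limits and 48.5% lay below 0, and members of this list were chosen with earlier results known. None of 39 probe sets for collagens and elastic fibres changed past the limits, although 29 lay below 0 (median -0.15, or 0.03 with 16 below 0 when ASC-L replicate 2 was left out), and Col1a1 differed by 0.11 (SE 0.18). Of 45 probe sets for matrix proteases and inhibitors, Serpinb1a and Adamts1 fell (median -0.18 with 28 below 0, or -0.01 with 23 below 0 without ASC-L replicate 2), and Mmp9, a gelatinase, gave 6.01, 10.96 and 7.99 in ASC-Ls, a change of 1.34 (SE 1.04).

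A few genes best known from neurons fell in these stromal cells, from a list chosen with earlier results known. Gria4, a subunit of AMPA glutamate receptors, had signals of 6.99, 6.86 and 7.62 in ASC-Ns and of 6.19, 5.13 and 5.72 in ASC-Ls. Gabra3, a subunit of GABA-A receptors, had 6.74, 6.34 and 6.93 against 5.35, 4.49 and 5.53. Both lay apart, and they fell by 1.48 (SE 0.46) and 1.54 (SE 0.43). Abat, which breaks down GABA, fell by 0.76 (SE 0.23), from 6.18, 6.90 and 6.82 to 5.84, 5.69 and 6.08. These were the 3 of 29 probe sets for neurotransmitter receptors and GABA enzymes past the limits, while 0.455% of all probe sets fell. Of the 29, 19 lay above 0 (median 0.10), and Tmeff2 and Galnt13 are not on that list. Tmeff2, a membrane protein with follistatin and EGF-like domains, fell by 1.16 (SE 0.35), from 6.35, 7.55 and 6.35 to 5.87, 5.62 and 5.30. Galnt13, a glycosyltransferase that starts O-linked sugars, fell by 1.63 (SE 0.55), from 7.36, 7.61 and 7.29 to 6.62, 4.91 and 5.84, and narrowly missed the p limit without ASC-L replicate 2 (-1.19, SE 0.54).

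A list of guidance genes showed 5 falls and no rise among 50 probe sets (median -0.08), while 0.455% of all probe sets fell. Its members were chosen with earlier results known, and Nsg1 and Lrrtm2 on it are not semaphorin, ephrin, Slit or netrin genes. Sema3d, a secreted semaphorin, fell by 0.73 (SE 0.24) from 6.04, 5.92 and 6.16 to 5.37, 5.57 and 4.99, with the stages apart, and was lost without ASC-L replicate 3 (-0.57). Plxnc1, a semaphorin receptor also carried by leukocytes, fell by 1.20 (SE 0.45), Nsg1, an endosomal protein of neurons, by 1.10 (SE 0.42), the ephrin receptor Epha3 by 0.81 (SE 0.34) and the synaptic adhesion protein Lrrtm2 by 0.65 (SE 0.26). Without ASC-N replicate 2 none of these 4 was past the limits (-0.91, -1.07, -0.70 and -0.49 in that order). Plxnc1 was also lost without ASC-N replicate 1 (-1.10) or ASC-L replicates 1 (-1.16) or 2 (-1.01), and Nsg1 when either ASC-L replicate 2 (-0.71) or ASC-N replicate 3 (-1.04) was dropped. Epha3 was lost without ASC-N replicate 1 (-0.71) or ASC-L replicates 2 (-0.60) or 3 (-0.68), and Lrrtm2 without ASC-N replicate 1 (-0.67) or ASC-L replicates 1 (-0.58) or 3 (-0.47).

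Among 44 homeobox and patterning probe sets 3 fell (median -0.09), while 0.455% of all probe sets did. Dlx2, a homeobox factor, had signals of 7.01, 6.89 and 6.67 in ASC-Ns and of 6.40, 6.09 and 6.01 in ASC-Ls, which did not overlap, and fell by 0.69 (SE 0.16). Osr1 and Meox2 were the others. Zdhhc17, a palmitoyl transferase, had small spread within stages, with signals of 7.04, 6.84 and 7.09 in ASC-Ns and of 6.35, 6.40 and 6.30 in ASC-Ls. The change was -0.64 (SE 0.12), and its other probe set differed by -0.47 (SE 0.12), short of 1.5-fold. Frmd3, a cytoskeletal adaptor protein, fell by 0.91 (SE 0.21) and Arsi, an arylsulfatase, by 0.89 (SE 0.27). Rbpms2, an RNA-binding protein of smooth muscle precursors, rose by 0.82 (SE 0.21), from 6.40, 6.33 and 6.17 to 6.84, 7.41 and 7.11.

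Several enzymes and receptors of small lipid mediators and oxidant defence fell. Ggt5, which converts leukotriene C4, had signals of 7.65, 7.56 and 6.03 in ASC-Ns and of 6.23, 5.19 and 5.57 in ASC-Ls, and Cysltr1, a receptor for cysteinyl leukotrienes, had 6.65, 6.67 and 4.63 against 4.73, 4.98 and 4.11. In both, ASC-N replicate 3 lay within the ASC-L range, and the falls were 1.41 (SE 0.46) and 1.38 (SE 0.53). Hpgd, which inactivates prostaglandins, fell by 0.88 (SE 0.38). They were the 3 of 26 prostaglandin and leukotriene probe sets past the limits (median -0.10), while 0.62% of all probe sets were. Gpx3, the secreted glutathione peroxidase, fell by 0.87 (SE 0.35) from 10.03, 10.22 and 10.14 to 9.93, 8.57 and 9.28, and the globin Cygb by 1.03 (SE 0.41), and with Ggt5 these were 3 of 30 antioxidant probe sets (median -0.16).

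Each of these calls depended on arrays. Ggt5 was lost without ASC-N replicates 1 (-1.13, SE 0.50) or 2 (-1.17, SE 0.52), and Cysltr1 without ASC-N replicates 1 (-1.05) or 2 (-1.04) or ASC-L replicates 1 (-1.44, SE 0.63) or 3 (-1.13). Hpgd was lost without ASC-N replicates 1 (-0.78) or 3 (-0.63) or ASC-L replicates 2 (-0.62) or 3 (-0.77). Gpx3 was lost without ASC-L replicates 2 (-0.52, SE 0.31) or 3 (-0.88) or any ASC-N array (-0.82 to -0.91). Cygb was lost without ASC-N replicates 1 (-0.99) or 3 (-0.86) or ASC-L replicates 1 (-0.88) or 2 (-0.72). Gch1, the enzyme that opens tetrahydrobiopterin synthesis, went the other way, with 6.02, 6.12 and 6.77 in ASC-Ns and 6.81, 7.35 and 8.76 in ASC-Ls. The stages were apart by a narrow margin and Gch1 rose by 1.34 (SE 0.47), although not without ASC-L replicate 3 (0.78, SE 0.34) or ASC-N replicates 1 (1.20) or 2 (1.24).

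Of all probe sets tested, 48.5% lay below 0 and 0.455% fell. Macrophage and monocyte markers were lower in ASC-Ls for 33 of 36 probe sets, with a median of -0.75, and 7 fell. Their mean signal was 7.34, 7.24 and 5.67 in ASC-N replicates 1 to 3 and 6.12, 6.08 and 5.88 in the ASC-L replicates, so that ASC-N replicate 3 lay below all ASC-Ls. The 7 were Ms4a6c (-1.68, SE 0.69), the myeloid lectin Clec12a (-1.42, SE 0.51), the actin-linked platelet and leukocyte protein Plek (-1.09, SE 0.46), Csf1r, the receptor for macrophage colony-stimulating factor (-1.07, SE 0.45), the folate receptor Folr2 (-0.87, SE 0.38), the inhibitory receptor Lair1 (-0.73, SE 0.29) and the chemokine receptor Cx3cr1 (-0.70, SE 0.24). For Csf1r the signals were 7.86, 7.93 and 6.41 against 6.60, 6.32 and 6.09. Without ASC-N replicate 3 the list had 27 of 36 probe sets past the limits, all lower, and a median of -1.31. Without ASC-N replicate 1 or 2 it had 0, with medians of -0.53 and -0.49, and without ASC-L replicates 1, 2 or 3 it had 3, 2 and 1, with medians of -0.84, -0.76 and -0.72. Core macrophage genes were bright but not past the limits, such as Lyz2 (lysozyme, -0.95, SE 0.53), Cd68 (-0.67, SE 0.57) and Adgre1 (-0.99, SE 0.55). Of the 37 falls whose arrays overlapped, 29 no longer did so once ASC-N replicate 3 was left out. Complement genes lay below 0 in 16 of 18 probe sets (median -0.49, or 0.03 without ASC-L replicate 2) with none past the limits.

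Il17ra, the receptor for interleukin 17A, was 8.82, 8.47 and 8.65 in ASC-Ns and 7.95, 7.99 and 8.09 in ASC-Ls. The stages were apart, and it fell by 0.63 (SE 0.14), but came under 1.5-fold without ASC-N replicate 1 (-0.55, SE 0.15). With Csf1r and the interleukin 36 receptor Il1rl2 (-0.85, SE 0.35) it made 3 of 49 interleukin and cytokine probe sets past the limits (median -0.07), while 0.62% of all probe sets were. Il1rl2 was lost without ASC-L replicates 1 (-0.83) or 2 (-0.51) or ASC-N replicates 1 (-0.84) or 2 (-0.75). Cd40, a costimulatory receptor, rose by 1.05 (SE 0.42), with 8.05 and 8.04 in ASC-L replicates 2 and 3 but 6.48 in replicate 1, inside the ASC-N range. It passed the limits without ASC-L replicate 1, and was lost without ASC-L replicates 2 (0.78) or 3 (0.79) or any ASC-N array (0.98 to 1.12). Il6 differed by 0.49 (SE 0.81). None of 27 interferon response probe sets was past the limits, although ASC-L replicate 3 had the highest mean of that list, 8.26 against 6.29 to 7.29 on the other 5 arrays.

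Epithelial genes were higher in ASC-Ls mainly through ASC-L replicate 2, and milk genes in part through it. Of all probe sets tested, 51.5% lay above 0 and 0.62% were past the limits. The luminal list had 22 of 24 probe sets above 0 (median 0.57), the basal list 13 of 15 (median 0.81) and the milk list 10 of 12 (median 0.43), with 3, 0 and 1 past the limits. Without ASC-L replicate 2 the medians of the luminal, basal and milk lists were -0.34, -0.15 and 0.15, and no member was past the limits. Then 19 of 24 luminal and 10 of 15 basal probe sets lay below 0, but only 2 of 12 milk probe sets did. Krt18, a luminal keratin, gave 8.31, 8.24 and 5.65 in ASC-Ns and 5.86, 11.57 and 6.68 in ASC-Ls, a change of 0.63 with an SE of 1.61, and Krt14, a basal keratin, gave 5.85, 10.71 and 5.71 in ASC-Ls. The luminal transcription factor Elf3 differed from that pattern, at 4.79, 4.86 and 5.11 in ASC-Ns and 5.48, 5.73 and 5.38 in ASC-Ls. It rose by 0.61 (SE 0.14) and was 0.51, under 1.5-fold, without ASC-L replicate 2, and under it also without ASC-N replicates 1 (0.54) or 2 (0.58). Wap, the whey acidic protein of milk, rose by 0.81 (SE 0.34), with 5.78, 6.90 and 5.57 in ASC-Ls against 5.13 to 5.40, and changed by 0.40 (SE 0.23) without ASC-L replicate 2. It also missed the p limit without any ASC-N array (0.73 to 0.87). The casein Csn1s1 gave 3.89, 7.51 and 5.29 in ASC-Ls against 3.70 to 3.78 in ASC-Ns (1.81, SE 0.82).

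Across the 36 rises, ASC-L replicate 2 was the most changed ASC-L array in 27, replicate 3 in 8 and replicate 1 in 1. Without ASC-L replicate 2, 9 of the 36 rises and 43 of the 99 falls stayed past the limits. Acpp, an acid phosphatase, showed the largest rise, 1.76 (SE 0.76), from 5.64 to 6.16 in ASC-Ns to 5.81, 9.33 and 7.59 in ASC-Ls, and changed by 0.88 (SE 0.56) without that array. Acpp stayed past the limits without ASC-L replicate 1 and was lost without any other array (1.66 to 1.92 for the remaining 4). Other large rises were of that kind. Tm4sf4, a tetraspanin-like membrane protein, rose by 0.89 (SE 0.38) from 4.83, 4.55 and 4.88 to 5.15, 6.36 and 5.43, and Ly6d, a surface protein of epithelial cells, by 0.86 (SE 0.35) from 5.16, 4.79 and 4.73 to 5.19, 6.69 and 5.39. Arap2, a regulator of small GTPases, rose by 0.85 (SE 0.27) from 5.95, 6.27 and 5.82 to 6.29, 7.46 and 6.83, and Lrrc8c, a subunit of volume-regulated anion channels, by 0.82 (SE 0.27), at 9.31, 10.27 and 9.35 in ASC-Ls, with 8.51 the lowest ASC-N signal. ASC-L replicate 2 was the highest array for all 4, though every ASC-L array lay above the ASC-Ns. Without it none passed, with changes of 0.54 for Tm4sf4, 0.39 for Ly6d, 0.55 for Arap2 and 0.51 for Lrrc8c. Tm4sf4 was also lost without ASC-L replicate 3 (1.00) or any ASC-N array (0.79 to 0.96), Ly6d without ASC-N replicates 2 (0.81) or 3 (0.78), and Lrrc8c without ASC-N replicate 3 (0.67). F11r, a tight junction protein, rose by 0.89 (SE 0.36) with overlapping stages, but not without ASC-L replicates 2 (0.50) or 3 (0.93) or ASC-N replicate 3 (0.69). The part of the epithelial signal in these rises was not tested.

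**Figure D4:**
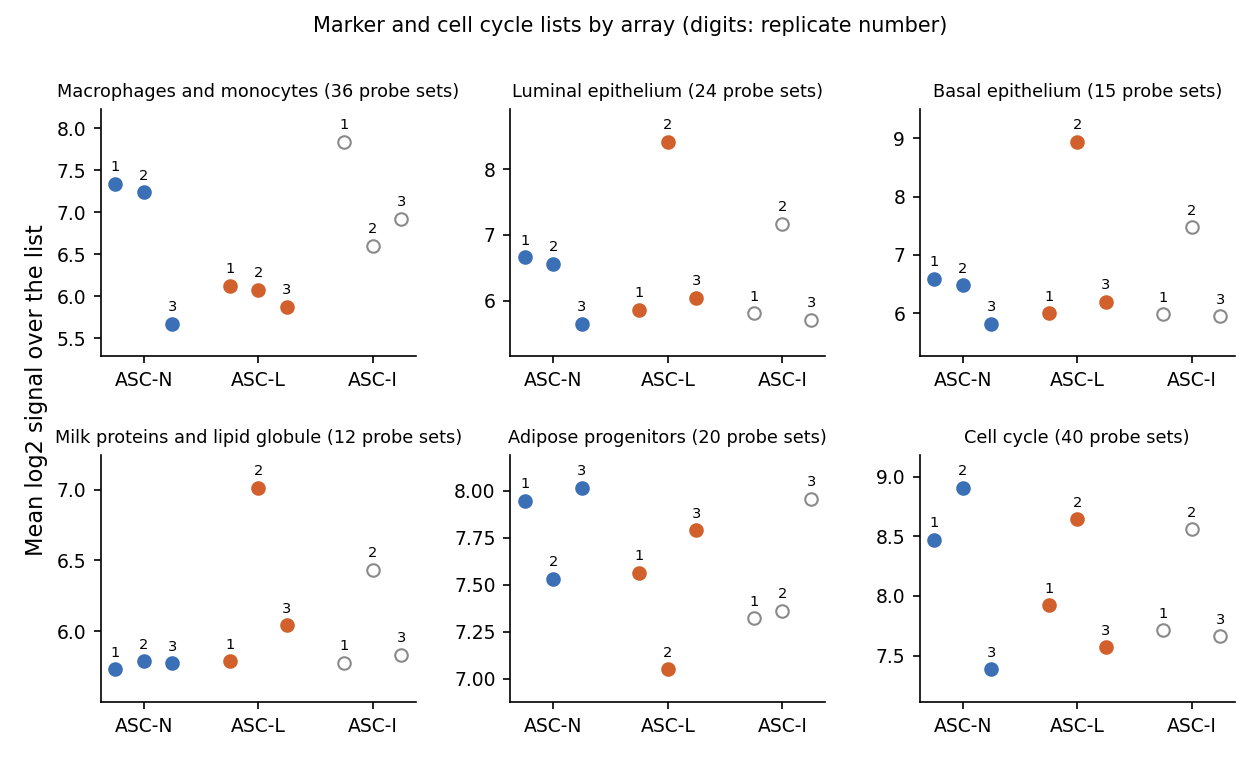
Mean log2 signal over the probe sets of 6 gene lists (y axis) on each array, with the replicate number at each point and stages on the x axis. ASC-L replicate 2 is highest among ASC-Ls for the luminal, basal and milk lists (8.41, 8.93 and 7.01) and lowest for adipose progenitors (7.05), and ASC-N replicate 3 is lowest among ASC-Ns for macrophages (5.67) and the cell cycle (7.38).

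Against 48.5% below 0 and 0.455% that fell among all probe sets, the cell cycle list lay below 0 in 34 of 40 (median -0.20), with 2 falls. Its mean was 8.47, 8.91 and 7.38 in ASC-Ns and 7.92, 8.64 and 7.57 in ASC-Ls, and its median turned to 0.18 without ASC-N replicate 2 and to 0.04 without ASC-L replicate 3, against -0.77 without ASC-N replicate 3. The falls were Mxd4, a Myc antagonist (-0.60, SE 0.23), and Cdk7 (-0.69, SE 0.21), a kinase of the transcription machinery whose other probe set differed by -0.10 (SE 0.15). Mxd4 was lost without ASC-L replicates 2 (-0.53) or 3 (-0.43) or ASC-N replicates 1 (-0.58) or 3 (-0.55), and Cdk7 when either ASC-L replicate 2 (-0.56) or ASC-N replicate 3 (-0.54) was dropped. No probe set was past the limits among immediate early genes (median -0.24, or -0.04 without ASC-N replicate 3), glycolysis and hypoxia genes (median -0.11, or 0.10 without ASC-L replicate 2), the unfolded protein response (median -0.04), contractile genes (median -0.07), integrins and cadherins (median 0.10, or -0.12 without ASC-L replicate 2) or lactation hormone receptors with Stat5 (median -0.03).

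The remaining lists held few calls, while 0.62% of all probe sets were past the limits. Of 18 insulin-like growth factor probe sets, Stc2, a secreted glycoprotein, rose by 0.73 (SE 0.27), at 7.53, 6.97 and 7.33 in ASC-Ns and 7.83, 7.62 and 8.55 in ASC-Ls, and Kazald1 fell by 0.67 (SE 0.28), a list with a median of -0.06. Of 41 chemokine probe sets, Cx3cr1 and Gpr183, an oxysterol receptor of immune cells (-0.60, SE 0.25), fell (median -0.11). Msln, the mesothelial antigen mesothelin, rose by 0.60 (SE 0.21), highest on ASC-L replicate 1 at 6.31, and Rgs18, a regulator of G protein signaling, fell by 0.88 (SE 0.30). Stc2 was lost without ASC-L replicate 3 (0.45) or ASC-N replicate 2 (0.57), Msln without ASC-L replicate 1 (0.34) or ASC-N replicates 1 (0.54) or 2 (0.56), and Rgs18 without ASC-N replicates 1 (-0.65) or 2 (-0.74). Kazald1 was lost without ASC-L replicates 2 (-0.44) or 3 (-0.67) or any ASC-N array (-0.63 to -0.71), and Gpr183 without ASC-N replicates 1 (-0.50) or 2 (-0.51) or ASC-L replicates 1 (-0.54) or 3 (-0.57). Zim1, an imprinted zinc finger gene, fell by 0.64 (SE 0.25), Cd69, a lymphocyte activation marker, by 0.70 (SE 0.30) and Tubb3, a neuronal tubulin, by 1.04 (SE 0.45). Zim1 was lost without ASC-L replicates 2 (-0.45) or 3 (-0.67) or ASC-N replicate 3 (-0.48), Cd69 without ASC-N replicates 1 (-0.60) or 2 (-0.42) or ASC-L replicates 1 (-0.63) or 2 (-0.67), and Tubb3 without ASC-N replicates 1 (-0.83) or 2 (-0.80) or ASC-L replicates 2 (-0.95) or 3 (-0.71). Ano3, a membrane protein of the anoctamin family, fell in both its probe sets, by 0.86 (SE 0.35) and 1.10 (SE 0.47), and both were lost without ASC-N replicates 2 (-0.84 and -0.92) or 3 (-0.68 and -1.03) or ASC-L replicates 2 (-0.71 and -0.85) or 3 (-0.86 and -1.18). Pdgfc, a platelet-derived growth factor, differed by 0.53 (SE 0.61) and Klf2, a Krüppel-like factor, by -0.23 (SE 0.22). Gene sets that the study described in these same samples, and which are no independent evidence of direction, had no member past the limits except Tnc, in the carcinoma associated fibroblast and tumorigenesis sets.

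MicroRNA genes of the imprinted Dlk1 to Dio3 region on chromosome 12 mostly had changes below 0. This cluster is transcribed from the maternal chromosome and its miRNAs are processed from long noncoding transcripts that begin with Meg3. The region was picked out after its values were seen, so its counts are a description with no test. Between Mir379 and Mir369, 25 of 30 miRNA probe sets lay below 0 with a median of -0.36, whereas 95 of 254 miRNA probe sets outside the region did (37.4%, median 0.05). The 3 miRNAs past the limits, out of 294 miRNA probe sets, were all in this stretch and all fell, against 0.455% of all probe sets. The 30 hairpins carry 56 mature sequences in RefSeq (GRCm38.p6), with 54 different seeds. The mature forms found for the 3 genes that fell, and for Mir539, which came just short of 1.5-fold, are given 5′ to 3′. The seed, bases 2 to 8, is in capitals, and no 2 of them share a seed. For Mir487b and Mir539 only the 5p arm was found among these sequences, so any 3p arm is not given. The probe sets lie on the hairpins and do not tell the arms apart.
miR-487b-5p, chr12:109727347-109727367, plus strand: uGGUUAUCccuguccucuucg
miR-539-5p, chr12:109728136-109728157, plus strand: gGAGAAAUuauccuuggugugu
miR-329-5p, chr12:109713503-109713524, plus strand: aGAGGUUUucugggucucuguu
miR-329-3p, chr12:109713541-109713562, plus strand: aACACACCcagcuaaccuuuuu
miR-380-5p, chr12:109711806-109711827, plus strand: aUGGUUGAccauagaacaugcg
miR-380-3p, chr12:109711842-109711863, plus strand: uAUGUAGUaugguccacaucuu

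Mir487b had signals of 6.75, 6.32 and 6.42 in ASC-Ns and of 5.82, 5.96 and 5.26 in ASC-Ls. All ASC-L arrays were lower, and it fell by 0.82 (SE 0.21). Mir329 fell by 0.88 (SE 0.35), from 6.39, 5.37 and 5.39 to 5.23, 4.59 and 4.68, and Mir380 by 0.78 (SE 0.32), from 5.02, 4.26 and 4.76 to 4.57, 3.41 and 3.74. Mir380 overlapped between stages through ASC-L replicate 1. Mir329 was lost without ASC-N replicate 1 (-0.54) or ASC-L replicates 2 (-0.76) or 3 (-0.80), and Mir380 without ASC-N replicates 1 (-0.61) or 3 (-0.74) or ASC-L replicates 2 (-0.53) or 3 (-0.69). Mir539 differed by -0.57 (SE 0.16), just under that limit. The mean of the 30 was 5.25, 4.76 and 5.04 in ASC-Ns and 4.96, 4.51 and 4.53 in ASC-Ls, so that ASC-L replicate 1 lay above ASC-N replicate 2. Their median stayed between -0.25 and -0.45 with each array left out in turn. Signals were low, with 25 of the 30 below the median of all probe sets. The 10 miRNAs before Mir379 had a median of -0.03, and of the long transcripts Meg3 differed by -0.68 (SE 0.51) and Rian by -0.67 (SE 0.32). At the ends of the region Dlk1, an inhibitor of adipocyte differentiation, differed by -0.18 (SE 0.14) and Dio3, which inactivates thyroid hormone, by -0.95 (SE 0.50).

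**Figure D5:**
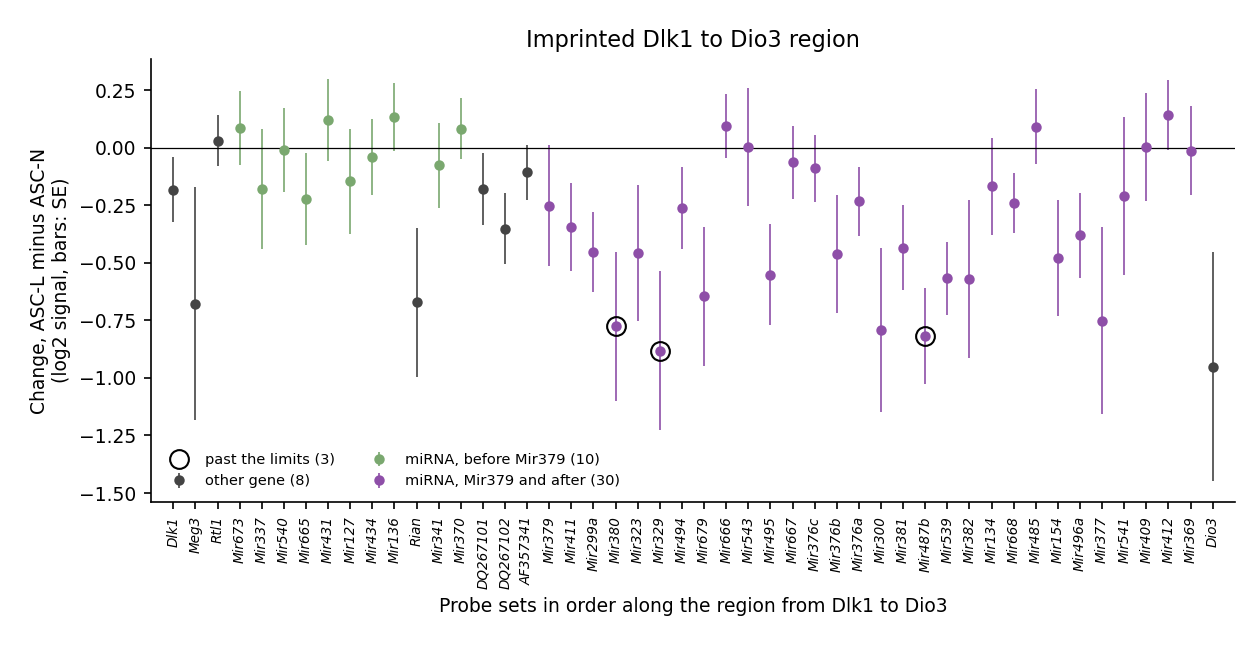
Change in log2 signal (y axis, ASC-L minus ASC-N, bars are standard errors) of the 48 probe sets with 1 gene symbol from Dlk1 to Dio3, in chromosome order along the x axis. Purple points are the 30 miRNAs from Mir379 on, green points the 10 miRNAs before it, dark points the 8 other genes, and rings mark Mir380, Mir329 and Mir487b, the 3 past the limits.

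The involution arrays were set beside both stages, with the ASC-N arrays shared between the comparisons. The ASC-I mean lay between the ASC-N and ASC-L means for 35 of the 36 rises and 87 of the 99 falls. Choosing probe sets by their ASC-L and ASC-N values itself favors that order. Pgf, for example, had means of 8.06 in ASC-Is and 8.17 in ASC-Ls, and P3h2 was the exception among the rises. P3h2 in ASC-Is (5.80, 6.37 and 5.89) lay near the ASC-N values, while Pparg (7.03, 6.74 and 7.42) and Sned1 (7.12, 6.23 and 7.04) lay below all ASC-N arrays, with ASC-I minus ASC-N changes of -0.83 and -0.87. Aldh1a2 in ASC-Is differed from ASC-Ns by -0.58.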

How the data were processed

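Log2 signals per probe set were deposited by the authors, who used robust multi-array averaging (RMA) in the account of the methods, while the submitters' processing notes name GCRMA and limma without versions; no scanner files or scan dates were used here. Per the file headers each column is 1 array, and the median of the tested probe sets lay between 6.26 and 6.33. Probe sets were named from the array's annotation, and 1621 with several symbols and 4965 with none were left out. Entrez identifiers of 21671 were found in RefSeq (GRCm38.p6), which changed 0 symbols.

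Linear models (limma 3.58.1 in R 4.3.3) were fitted to all 9 arrays with a mean per stage and no replicate block, with moderated variances (eBayes) and Benjamini-Hochberg adjustment over 21762 probe sets. The contrast was tested on simulated data. Lists are described by counts and medians, without tests. The members and lists were chosen with earlier results of these data known. Genes were named as the 12 largest rises and 18 largest falls past the limits whose arrays did not overlap, up to 4 members of each list past the limits (most lists without such a member are given by their counts alone, short of the rule), the 8 lowest p in each direction, and genes the study named or measured by RT-PCR. The chromosome 12 miRNAs, the 22 probe sets that passed with any array left out, and members given for context were chosen after their values were seen. Alternatives were a robust variance prior that follows intensity, a model of the 6 arrays compared, array weights, cyclic loess, quantile normalization, filters on variation and signal, all probe sets, averaging per gene, the replicate block, and leaving out arrays. Precision is limited by the number of arrays. Figures were drawn with matplotlib 3.10.9.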

Additional observations from a re-analysis of the deposited data

How the results depend on the processing

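No gene passed an adjusted p of 0.05 under any alternative run, and no named gene changed direction while past the limits. Against 135 probe sets past the limits (36 higher, 99 lower), array weights gave 343 (56 higher, 287 lower) and leaving out both ASC-L replicate 2 and ASC-N replicate 3 gave 770 (136 higher, 634 lower). Leaving out 1 ASC-L or ASC-N array in turn gave from 93 to 455 in all, from 27 to 214 higher and from 57 to 312 lower, the lowest total without ASC-N replicate 1 and the highest without ASC-L replicate 1. Whether the replicate numbers pair the arrays was not tested. Deviations from the stage means correlated with r of -0.09, 0.40 and 0.45 between ASC-L and ASC-N arrays of the same number. Between arrays of different numbers r ran from -0.51 to 0.32. With the replicate block 305 passed (90 higher, 215 lower), among them all 36 rises and 99 falls. The other alternatives, namely the intensity trend, only 6 arrays, cyclic loess, quantile normalization, the filters, all probe sets, averaging and leaving out ASC-L replicate 2 with ASC-I replicate 2, stayed within 1.5 times of each count. Of 78 named probe sets past the limits, 60 stayed past them after cyclic loess, 65 after quantile normalization, 61 with array weights, 36 without ASC-N replicate 1 and 34 without ASC-L replicate 2. Of all 135, 17 of the rises and 53 of the falls had a mean signal below the median of the probe sets, where background limits what a change can show; the cause of the shifts in counts was not tested.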

Other observations

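Some of the largest differences were not past the limits, with ASC-L arrays far from each other. Their choice followed from seeing the values. The Wnt modulator Sfrp1 gave 11.74, 5.98 and 9.10 in ASC-L replicates 1 to 3 and 11.25, 10.08 and 12.22 in ASC-Ns, a change of -2.25. The matrix proteins Abi3bp, Efemp1 and Fmod differed by -2.36 (SE 1.40), -2.16 (SE 1.27) and -1.88 (SE 0.99). In each of these 4 genes ASC-L replicate 2 was the lowest of the 6 arrays and ASC-L replicate 1 lay within the ASC-N range. In the other direction the protease Mmp10 gave 5.64, 9.49 and 9.79 in ASC-Ls (1.93, SE 1.16) and the cytokine Csf2 gave 4.39, 8.85 and 7.54 (1.84, SE 0.99), with ASC-L replicate 1 below all ASC-Ns in both.

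For 7 of the genes past the limits another probe set of the gene was not. Kansl1, a subunit of a chromatin acetylation complex, differed by -0.70 (SE 0.17) in the first and -0.09 (SE 0.13) in the other, Etfbkmt by -1.05 (SE 0.35) and -0.06 (SE 0.11), Tmem154 by 0.60 (SE 0.26) and 0.14 (SE 0.14), and Dppa2 by 0.59 (SE 0.18) and 0.20 (SE 0.22). Of the 4 probe sets of Mir99ahg, a noncoding host gene of miRNAs, 1 differed by -0.76 (SE 0.24) and the other 3 by -0.07 to -0.14. Cdk7 and Zdhhc17 are described above.

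Among the lowest p-values in each direction, some changes did not reach 1.5-fold while the stages lay apart. Slfn4 differed by 0.53 (SE 0.12), Slco6c1 by 0.50 (SE 0.10), Gm16497 by 0.47 (SE 0.11), Slc25a43 by 0.46 (SE 0.11) and Gm4868 by 0.46 (SE 0.11), and in the other direction Ms4a1, the B cell antigen CD20, by -0.49 (SE 0.11) and Cst10 by -0.49 (SE 0.11).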
